A study of Mus musculus with 33 samples.

Results

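The step from day 9 to day 12 in cells that carry SSEA1 is described here: 3 day 12 SSEA1pos libraries against 3 day 9 SSEA1pos libraries, taken by their titles, 6 of the 33 mouse libraries of the series. The series sampled mouse embryonic fibroblasts (MEFs) of the strain 129SV/Jae/C57BL6J, cells at days 3, 6, 9 and 12 of reprogramming, and cells at the induced pluripotent stem (iPS) stage, the cells after MEFs being split by SSEA1 into a negative and a positive fraction (SSEA1neg, SSEA1pos). Each of the 11 groups has 3 libraries. MEFs were kept in MEF medium, and reprogramming took place in embryonic stem cell (ES) medium with dox and AA. The labels give this strain for every group, call all sorted cells, those of the iPS stage included, reprogramming intermediates, and do not say whether the iPS stage was still on dox. All cells were taken up with trypsin, stained and sorted by FACS. The labels name no transgene, allele, animal or clone, and do not say whether equal replicate numbers mark 1 culture.

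SSEA1 is a fucosylated carbohydrate on the surface of mouse pluripotent cells, and in a fibroblast culture it marks the cells that have lost fibroblast identity and can go on to form iPS cells. In such cultures epithelial genes and a few pluripotency genes come on early, while much of the naive pluripotency network, genes silenced in somatic cells by promoter DNA methylation (many of them germline genes), and the silent X chromosome of female cells come on late. The comparison asks which genes changed within the positive fraction from day 9 to day 12.

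Reads in genes ranged from 19.62 to 24.87 M in the day 9 and from 18.78 to 26.76 M in the day 12 libraries, and 19272 to 19454 and 20327 to 20797 genes had a read. Levels are given as CPM, which is a gene's read count scaled to library size with TMM. The log2 CPM of libraries of a group correlated at 0.975 to 0.983 (Pearson) at day 9 and at 0.954 to 0.986 at day 12, where replicate 1 stood farther from replicates 2 and 3 (0.966 and 0.954) than these from each other (0.986). Fut9, the fucosyltransferase that makes the SSEA1 antigen, had 41.0, 70.9 and 75.0 CPM at day 9 and 33.3, 54.0 and 65.8 CPM at day 12, against means of 11.0 and 11.3 CPM in the SSEA1neg fraction of these days. It was higher in SSEA1pos than in SSEA1neg cells at both days (log2 difference 2.51 ± 0.51, adjusted p = 0.00052, and 2.18 ± 0.51, adjusted p = 0.00097) and did not pass the test between the days (log2 change -0.29 ± 0.48, adjusted p = 0.78). Changes are log2 fold change ± standard error, adjusted p is Benjamini-Hochberg adjusted from edgeR's quasi-likelihood test over all 17326 genes tested, and "rose" and "fell" are used of genes with an adjusted p under 0.05 and a change of at least 2-fold.

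Between day 9 and day 12, 930 genes rose (5.37% of those tested) and 598 fell (3.45%), 8.82% in all, and 34.4% of genes had values that did not overlap between the days. The median change over all genes tested was 0.03. The fit behind these counts has no term for the replicate number. With the number as a block 1196 genes rose and 708 fell, and 1504 of the 1528 main calls were kept. The genes that rose were mostly low at day 9 (median 0.572 CPM) and reached a median of 4.47 CPM, with a median log2 change of 2.87, or 2.81 when the 50 genes with 0 reads at day 9 are set to a bound of 3 counts over the group. The genes that fell were well expressed (median 35.4 CPM at day 9, 11.9 CPM at day 12), with a median log2 change of -1.53. The change differed in size between the replicate pairs: the genes that rose had medians of 2.86, 2.42 and 1.77 in pairs 1, 2 and 3, and the genes that fell had -2.22, -1.78 and -0.73. Pair 3 thus moved least, and of the genes that fell 579 of 598 were lower at day 12 in that pair. In bulk RNA of a sorted fraction, fewer cells that express a gene and less RNA per cell cannot be told apart.

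The counts depended on which libraries entered. Without day 9 replicate 3, 645 rose and 610 fell. Without day 12 replicate 1, 350 genes rose and 228 fell, and without day 9 replicate 2, 356 rose and 326 fell. Without day 9 replicate 1, 465 rose and 414 fell, and without day 12 replicate 2, 694 rose and 318 fell. Without day 12 replicate 3, 1010 rose and 889 fell. With both libraries of pair 1 left out 119 rose and 125 fell, with pair 2 left out 207 rose and 128 fell, and with pair 3 left out 729 rose and 818 fell. None of these fits called a gene in the opposite direction.

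The 10 largest increases, in falling order, were Sohlh2, Usp26, D1Pas1, Lncenc1, Fmr1nb, Tuba3a, Nphs1, Dazl, Rpl10l and Cyct. Sohlh2, a helix-loop-helix factor of early germ cells, had 2, 1 and 3 reads at day 9 and 389, 191 and 200 reads at day 12 (0.0829, 0.041 and 0.144 CPM against 14.2, 8.12 and 9.33 CPM). Groups that do not overlap were a condition for naming these 10 genes. For Sohlh2 the ratio of the summed reads was 125 (95% exact interval 57.0 to 341, counting error only; log2 change 6.83 ± 1.01, adjusted p = 0.00018). Dazl, an RNA-binding protein required for germ cell development, had 0.414, 0.287 and 0.383 CPM at day 9 and 19, 11.4 and 11.0 CPM at day 12 (5.24 ± 0.91, adjusted p = 0.0007). Usp26 and Fmr1nb, both on the X chromosome and known from testis, had 0.0829 to 0.335 CPM and 0.249 to 0.369 CPM at day 9, and 8.25 to 20.5 CPM and 7.32 to 21.5 CPM at day 12. Lncenc1, a long non-coding RNA of naive embryonic stem cells, had 2.44, 0.778 and 2.15 CPM at day 9 and 131, 65.0 and 53.6 CPM at day 12 (5.54 ± 0.79, adjusted p = 0.00016). Nphs1, the podocyte protein nephrin, rose from 0.123 to 0.526 CPM at day 9 to 8.21 to 16.0 CPM at day 12 (adjusted p = 0.0051). D1Pas1, Tuba3a, Rpl10l and Cyct are testis genes with near copies elsewhere in the genome (a DEAD-box helicase, an alpha tubulin, a ribosomal protein and a cytochrome c), so the split of reads between copies is uncertain for them. None of the 10 passed the test of day 6 against day 9 in SSEA1pos cells, and Sohlh2, Usp26 and Dazl rose again from day 12 to the iPS stage, to means of 94.9, 110 and 81.5 CPM.

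The promoters of 5 germline genes are printed as examples, picked from the genes that rose in this step and hold at least 1 of the motifs searched. Other genes that rose meet the same terms and are not printed. Each is the 250 bases before the RefSeq gene start (GRCm38.p6), with TCCCGC or its reverse complement GCGGGA (the core of the E2F6-type site) and CACGTG (an E-box, its own reverse complement) in capitals. The Hormad1 stretch is chr3:95559427-95559676 (plus strand), Sycp3 chr10:88459337-88459586 (plus), Ddx4 chr13:112652311-112652560 (minus), Mael chr1:166238745-166238994 (minus) and Smc1b chr15:85131958-85132207 (minus).
Hormad1: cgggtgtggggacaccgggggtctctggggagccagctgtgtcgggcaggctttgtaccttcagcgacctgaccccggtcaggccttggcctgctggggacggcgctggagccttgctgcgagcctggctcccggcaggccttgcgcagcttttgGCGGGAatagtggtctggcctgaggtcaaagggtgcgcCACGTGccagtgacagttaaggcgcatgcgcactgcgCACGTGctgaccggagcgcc
Sycp3: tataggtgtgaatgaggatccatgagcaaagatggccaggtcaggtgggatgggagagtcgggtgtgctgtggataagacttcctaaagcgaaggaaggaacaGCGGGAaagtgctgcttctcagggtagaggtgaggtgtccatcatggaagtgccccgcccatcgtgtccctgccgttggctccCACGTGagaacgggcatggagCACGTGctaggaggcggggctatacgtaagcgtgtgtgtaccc
Ddx4: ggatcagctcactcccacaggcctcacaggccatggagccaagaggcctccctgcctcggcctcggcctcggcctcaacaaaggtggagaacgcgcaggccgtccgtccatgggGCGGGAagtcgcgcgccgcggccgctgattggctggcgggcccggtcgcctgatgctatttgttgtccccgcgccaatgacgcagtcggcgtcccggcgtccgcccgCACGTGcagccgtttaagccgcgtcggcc
Mael: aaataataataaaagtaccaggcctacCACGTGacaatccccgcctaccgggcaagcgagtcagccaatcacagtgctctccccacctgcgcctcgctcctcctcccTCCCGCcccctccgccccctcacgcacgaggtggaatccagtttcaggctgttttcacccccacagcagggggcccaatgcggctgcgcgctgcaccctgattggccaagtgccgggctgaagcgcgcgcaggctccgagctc
Smc1b: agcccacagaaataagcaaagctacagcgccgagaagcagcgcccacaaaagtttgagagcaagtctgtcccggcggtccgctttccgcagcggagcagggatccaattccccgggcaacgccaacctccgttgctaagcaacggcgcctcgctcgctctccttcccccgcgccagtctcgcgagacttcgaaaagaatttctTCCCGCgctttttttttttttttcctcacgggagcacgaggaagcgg
The match to the E2F6-type core begins 95, 147, 136, 143 and 47 bases before the start in these genes, in that order. The E-box begins 57 and 20 bases before the start in Hormad1, 64 and 43 in Sycp3, 29 in Ddx4 and 223 in Mael, and is not in the Smc1b stretch. Over the full windows of 250 bases before to 50 after the start, searched on both strands, 12 of 26 germline list members with a window held TCCCGC or GCGGGA (46.2%), against 20.0% of 27025 windows, 1 a gene. CACGTG was in 12 of 26 (46.2%), against 7.24% of all windows, and 7 of 26 held both (26.9%, against 2.05%). Among the members that rose, 9 of 17 held the E2F6-type core (52.9%) and 8 of 17 the E-box (47.1%), and among those that did not pass the test 3 of 9 and 4 of 9 did. Both motifs were in 5 of the 17 that rose (29.4%) and in 2 of the 9 that did not pass. Of the 10 largest increases of the step, 4 held the E2F6-type core and 0 the E-box. The octamer ATGCAAAT or its reverse complement was in none of the 26, against 1.75% of all windows. Matches of the 2 motifs do not overlap in the printed stretches, the windows differ in CpG content (median observed to expected ratio 0.71 in the germline list, 0.39 in all windows), and a match is a description of letters in a window.

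Of the 28 genes of the germline list (meiosis, piRNA and germ cell genes), all of which were tested, 18 rose and none fell, against 5.37% of all genes rising. The median log2 change of the list was 2.93 (2.86 with Asz1, at 0 reads at day 9, set to its bound), beside 0.03 over all genes. Smc1b, the meiotic cohesin subunit, had 0.787, 1.47 and 1.34 CPM at day 9 and 27.6, 16.8 and 20.9 CPM at day 12 (4.18 ± 0.58, adjusted p = 0.0001). Ddx4, the germ cell helicase Vasa, had 0.456, 0.246 and 0.431 CPM at day 9 and 6.77, 4.12 and 3.97 CPM at day 12 (3.70 ± 0.57, adjusted p = 0.00025). Hormad1, a protein of the meiotic chromosome axis, had 0.29, 0.164 and 0.383 CPM at day 9 and 12.3, 7.53 and 5.78 CPM at day 12 (4.92 ± 0.83, adjusted p = 0.00064). These 3 genes were separated between the days without overlap, and their calls held in each alternative fit that was run. Mael, a piRNA pathway gene, had 3 reads in the day 9 libraries together and 433 at day 12, a ratio of 138 (95% exact interval 47.0 to 674, counting error only). Tdrd12 and Mov10l1, also of the piRNA pathway, went from 1.84 to 2.25 CPM to 11.3 to 30.7 CPM and from 0.239 to 0.414 CPM to 4.62 to 6.19 CPM. Stag3, another cohesin subunit, was already present at day 9 (3.89, 15.4 and 12.3 CPM) and reached 62.7, 66.0 and 50.7 CPM (2.51 ± 0.58, adjusted p = 0.006).

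The other 10 germline genes did not pass the test. Piwil2 had 26.2, 21.0 and 32.0 CPM at day 9 and 54.8, 38.4 and 44.1 CPM at day 12 (0.79 ± 0.60, adjusted p = 0.45), and Kit, the receptor for stem cell factor, had 33.1, 35.0 and 55.1 CPM and 123, 58.5 and 84.3 CPM (1.11 ± 0.74, adjusted p = 0.38). Piwil4 and Tdrkh had log2 changes of -0.64 and -0.91, with adjusted p of 0.47 and 0.22. Of these 4 genes Piwil2 and Kit were above 20 CPM in every day 9 library. With 1 library left out 13 to 16 members rose, and with pair 1, 2 or 3 left out 7, 10 and 16 did.

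**Figure D1:**
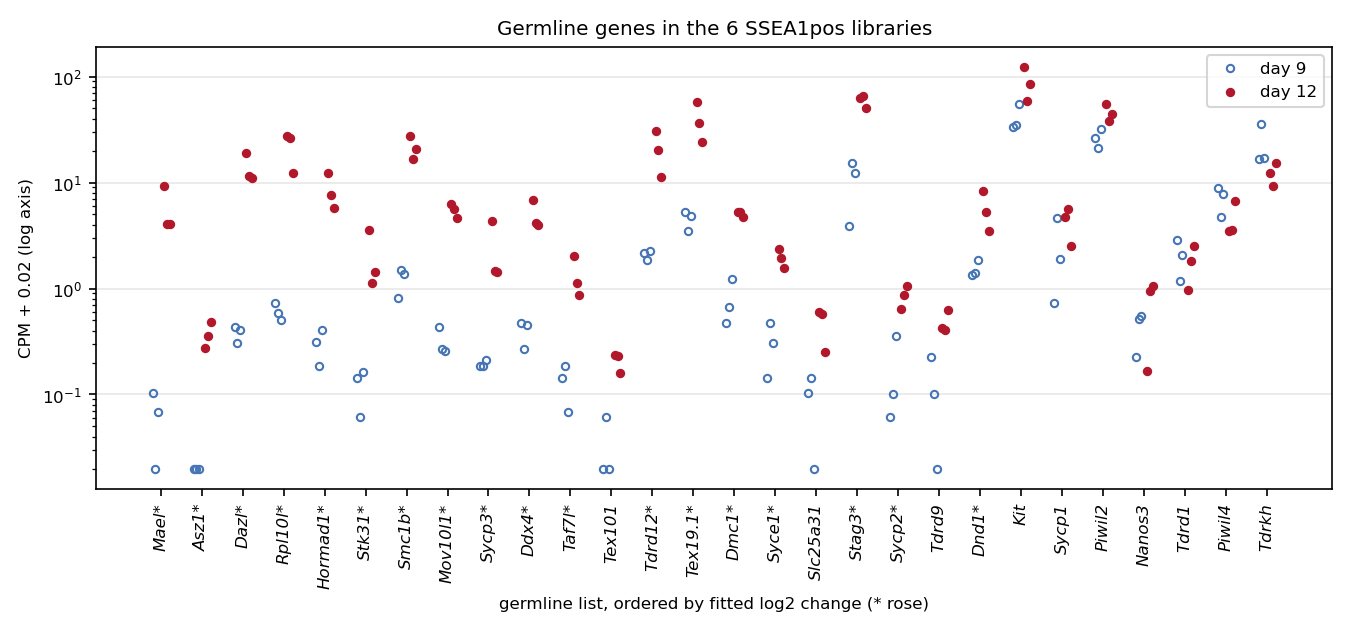
Each germline gene (x axis, ordered by fitted log2 change) is shown in the 3 day 9 (open) and 3 day 12 (filled) SSEA1pos libraries, as CPM + 0.02 on a log axis, so that points at the bottom are libraries with 0 reads. An asterisk marks the 18 genes that rose, and 24 of the 28 genes do not overlap between the days (34.4% of all genes tested do not).

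The naive pluripotency factors (transcription factors of the ground state of mouse embryonic stem cells) came next. Of 22 genes tested 11 rose (5.37% of all genes did) and none fell, the median log2 change was 1.83, and 19 of 22 were higher at day 12 in all 3 pairs (28.1% of all genes were). Tbx3, a T-box factor, had 8.87, 9.17 and 12 CPM at day 9 and 167, 133 and 87.7 CPM at day 12 (3.69 ± 0.59, adjusted p = 0.00039). Zfp42, the zinc finger gene known as Rex1, had 20.6, 14.7 and 14.2 CPM at day 9 and 277, 188 and 73.0 CPM at day 12 (3.44 ± 0.80, adjusted p = 0.0068). Esrrb, an orphan nuclear receptor, had 73.2, 107 and 117 CPM at day 9 and 604, 501 and 342 CPM at day 12 (2.28 ± 0.72, adjusted p = 0.038). In each of these genes every day 12 library was above every day 9 library, and day 12 replicate 1 was the highest and replicate 3 the lowest. Esrrb lost its call whenever 1 library other than day 12 replicate 3 was left out (adjusted p up to 0.13), while Tbx3 and Zfp42 kept theirs. Others that rose were Tcl1 (4.18), a cofactor of the kinase Akt, Foxd3 (2.68), Prdm14 (2.32), Klf2 (2.27), Klf5 (2.16), Sall4 (1.88) and Tfcp2l1 (1.85), with the log2 change in parentheses and adjusted p of 0.0077 to 0.049.

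Nanog, the homeobox gene at the centre of the network, had 115, 142 and 187 CPM at day 9 and 544, 486 and 417 CPM at day 12, without overlap (1.71 ± 0.75). It did not pass the main test (adjusted p = 0.14) and did with the replicate number as a block (adjusted p = 0.034). Mybl2 (1.54, adjusted p = 0.10), Zscan10 (1.46, adjusted p = 0.10) and Nr0b1 (1.92, adjusted p = 0.14) were also higher in every day 12 library and did not pass the main test. Each of them passed in a fit to the 6 libraries alone. Etv5 had 377, 357 and 423 CPM at day 9 and 344, 341 and 328 CPM at day 12, and Etv4 had a log2 change of -0.84 (adjusted p = 0.35). The count of naive factors that rose was 3 without day 12 replicate 1, 4 without day 9 replicate 1 or 2, 6 without day 12 replicate 2 and 7 without day 9 replicate 3. It was 1, 1 and 8 with pair 1, 2 or 3 left out. With no expression filter it was 6, with the replicate block 12 and with the 6 libraries alone 15. Of this list 7 rose from day 6 to day 9 and none from day 12 to the iPS stage. Those comparisons share the day 9 and day 12 libraries, and whether the steps differ was not tested.

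Of the 4 genes that code for the factors generally used in reprogramming, none passed the test in either direction, and their median log2 change was 0.02. Pou5f1 had 191, 253 and 301 CPM at day 9 and 429, 385 and 293 CPM at day 12 (0.57 ± 0.65, adjusted p = 0.65). Sox2 had 307, 396 and 516 CPM and 485, 550 and 462 CPM (0.30 ± 0.67, adjusted p = 0.85), and Klf4 had 433, 665 and 763 CPM and 397, 594 and 565 CPM (-0.26 ± 0.36, adjusted p = 0.73). All 3 overlapped between the days. Myc had 844, 851 and 932 CPM at day 9 and 271, 735 and 651 CPM at day 12 (-0.66 ± 0.39, adjusted p = 0.29), the lowest value being that of replicate 1. Reads of a cell's own gene and of an introduced copy cannot be told apart in these counts.

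Among the late pluripotency genes, which include embryonic and placental genes that come on near the end of reprogramming, 11 of 24 rose (5.37% of all genes did), none fell, and the median log2 change was 2.00. Dppa5a, an RNA-binding protein of pluripotent cells, had 39.2, 18.5 and 32.9 CPM at day 9 and 858, 543 and 296 CPM at day 12 (4.23 ± 0.86, adjusted p = 0.0024), an 18.7-fold change. Trap1a, an X-linked tumour rejection antigen, had 8.24, 5.08 and 9.76 CPM and 157, 105 and 57.1 CPM (3.79 ± 0.68, adjusted p = 0.00098). Ooep, an oocyte and embryo gene, had 1.99, 2.13 and 2.01 CPM and 69.8, 46.6 and 27.6 CPM (4.55 ± 0.88, adjusted p = 0.0016). The 3 genes again ordered the day 12 libraries as replicate 1, 2 and 3 from high to low. Dppa4 (3.67), Dppa2 (3.37), Dnmt3l (3.25), Spp1 (3.24), Lin28a (2.79), Gjb5 (2.74) and Lefty2 (2.44) rose as well, with adjusted p of 0.0026 to 0.041. Lin28a, a blocker of let-7 microRNA processing, was uneven at day 12, at 414, 128 and 79.4 CPM against 34.9, 9.91 and 45.3 CPM at day 9, and lost its call when day 12 replicate 1 was left out (largest adjusted p with 1 library left out 0.14). Lin28b (2.21 ± 0.82, adjusted p = 0.08) and Tdgf1 (1.79 ± 0.84, adjusted p = 0.17) did not pass, and passed with the replicate block (adjusted p = 0.048 and 0.041). Utf1 had 116, 65.0 and 160 CPM and 329, 322 and 227 CPM (1.37 ± 0.84, adjusted p = 0.33), and L1td1 went from 606 to 745 CPM to 462 to 534 CPM (-0.45 ± 0.55, adjusted p = 0.69). Of this list 4 genes rose without day 9 replicate 2, 5 without day 12 replicate 1, 8 without any other library but day 12 replicate 3, and 11 without that one. With pair 1, 2 or 3 left out 2, 4 and 10 rose. With no expression filter 8 did, with the replicate block 13 and with the 6 libraries alone 15. From day 6 to day 9, 11 of the 24 had already risen (0.998% of all genes did), with a median log2 change of 3.28. None rose from day 12 to the iPS stage. These steps share the day 9 and day 12 libraries, and whether they differ was not tested.

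**Figure D2:**
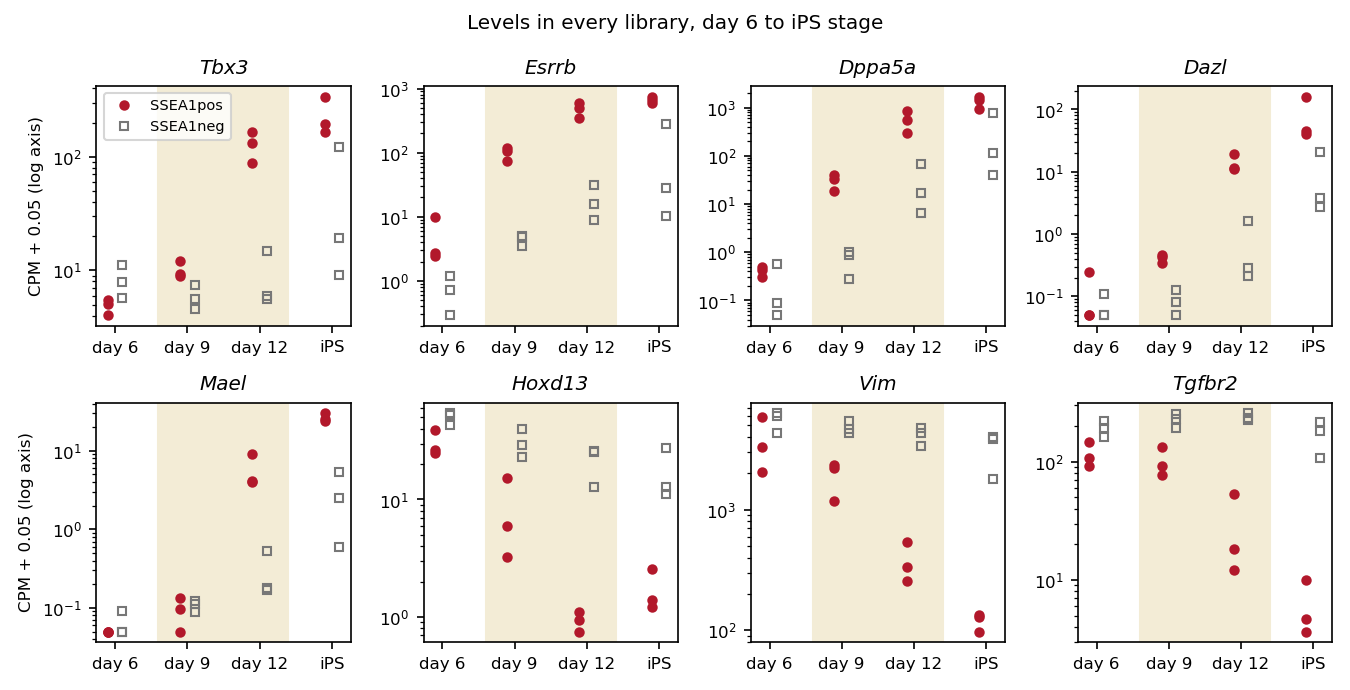
CPM + 0.05 on a log axis in every library of days 6, 9, 12 and the iPS stage for 8 genes, with SSEA1pos libraries as filled circles, SSEA1neg libraries as open squares and the day 9 to day 12 step shaded. In SSEA1pos cells Tbx3, Esrrb, Dppa5a, Dazl and Mael are higher and Hoxd13, Vim and Tgfbr2 lower in every day 12 library than in every day 9 library.

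Of the primed epiblast and primitive streak list, 3 of 14 genes rose (5.37% of all genes did) and none fell. Otx2, a homeobox gene of the epiblast, had 2.98, 1.39 and 4.35 CPM at day 9 and 65.7, 48.7 and 40.1 CPM at day 12 (4.15 ± 0.56, adjusted p = 9.2e-05), and was also 1 of the 12 genes that rose in SSEA1neg cells. Sox3 rose to 12.8, 2.08 and 1.07 CPM and Gsc to 4.55, 0.723 and 0.653 CPM, so that replicate 1 was far above the others at day 12, and without it neither passed the test (largest adjusted p with 1 library left out 0.17 and 0.42). Gsc overlapped between the days, since day 9 replicate 1 had 0.746 CPM.

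Hox genes are the clustered homeobox genes that record position along the body and limb axes and that fibroblasts keep in culture. Of 37 Hox genes tested 24 fell (3.45% of all genes fell) and none rose, the median log2 change was -1.95, and 33 were lower at day 12 in all 3 pairs (24.3% of all genes were). Hoxd1, with 1 read in the 6 libraries together, was not tested. Hoxa10 had 39.2, 34.9 and 25.7 CPM at day 9 and 1.82, 6.63 and 12.3 CPM at day 12 (-2.27 ± 0.38, adjusted p = 0.00048). Hoxd13 had 15.1, 5.94 and 3.16 CPM at day 9 and 1.06, 0.893 and 0.7 CPM at day 12 (-3.18 ± 0.47, adjusted p = 0.00018). Hoxa9 had 19.9, 29.2 and 19.8 CPM and 1.20, 6.33 and 10.4 CPM (-1.95 ± 0.48, adjusted p = 0.0094). Day 9 and day 12 did not overlap in any of these genes, and Hoxa9 and Hoxa10 were lowest in day 12 replicate 1. Hoxa11 and Hoxa11os, its antisense RNA, both fell (-2.81 ± 0.36 and -3.20 ± 0.38), but reads of a gene and its antisense partner cannot be told apart here because counting did not use strand. The genes that fell lay in all 4 clusters. Those that did not pass include Hoxb9, with a log2 change of -0.70, and Hoxb1, which had 49 reads in day 12 replicate 1 and 1 read in replicates 2 and 3 together.

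The median over Hox genes was -2.95, -2.14 and -0.87 in pairs 1, 2 and 3, and -0.07 in the SSEA1neg fraction. Without day 9 replicate 2 the number that fell was 14 and without day 12 replicate 1 it was 15, and with pair 1, 2 or 3 left out it was 12, 10 and 23. A fit to the 6 libraries alone called 7. From day 12 to the iPS stage 19 of the 37 fell and 1 rose.

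**Figure D3:**
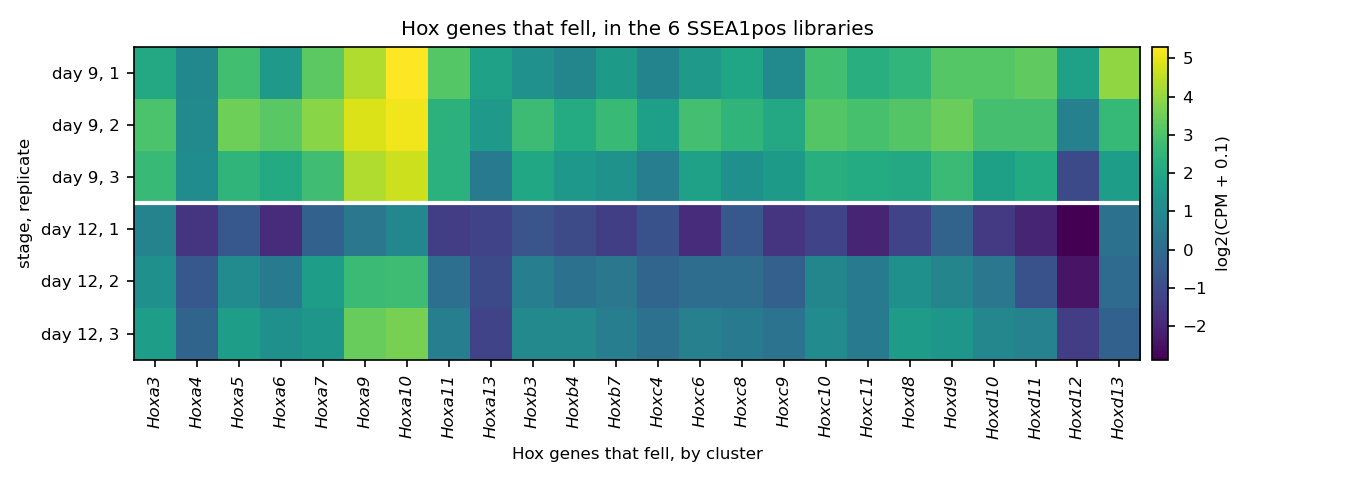
Heat map of log2(CPM + 0.1) for the 24 Hox genes that fell (columns, by cluster), chosen by that test, in the 3 day 9 and 3 day 12 SSEA1pos libraries (rows). The summed level of all Hox genes is lowest in day 12 replicate 1 (23.3 CPM), and Hoxa9 and Hoxa10 are the brightest columns at day 9.

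Of 32 fibroblast matrix and cytoskeleton genes 8 fell (Vim, Fstl1, Fbn1, Tnc, Col6a2, Acta2, Tagln and Sparc; 3.45% of all genes fell), none rose, and the median log2 change was -0.53. Vim, the intermediate filament of mesenchymal cells, had 2332, 2226 and 1171 CPM at day 9 and 256, 333 and 539 CPM at day 12 (-2.35 ± 0.35, adjusted p = 0.0002). Tnc, the matrix glycoprotein tenascin C, had 321, 305 and 268 CPM and 15.7, 28.4 and 90.1 CPM (-2.74 ± 0.55, adjusted p = 0.0022). Fbn1, fibrillin, had 166, 205 and 115 CPM and 21.1, 29.7 and 59.7 CPM (-2.14 ± 0.42, adjusted p = 0.0017). The lowest day 9 value was above the highest day 12 value in each. The collagen gene Col1a1 was already low at day 9, at 92.1, 14.7 and 32.2 CPM, against a mean of 2041 CPM in SSEA1neg cells and 37596 CPM in MEFs, and had 43.8, 59.2 and 78.5 CPM at day 12 (0.38 ± 0.81, adjusted p = 0.83). The surface marker Thy1 had 31.8, 52.7 and 13.3 CPM and 9.35, 15.5 and 32.0 CPM (-0.79 ± 0.48, adjusted p = 0.32). The list's median was -1.66, -0.32 and 0.17 in pairs 1, 2 and 3, and 4 genes fell without day 9 replicate 1 or 2 or without day 12 replicate 1 or 2. The summed level of the 32 genes was 5185 to 8984 CPM at day 9 and 3260 to 4228 CPM at day 12.

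Of 13 mesenchymal transcription factors, Tbx15, Meox2, Prrx1, Foxc1 and Twist1 fell (3.45% of all genes did) and 1, Foxc2, rose (5.37% of all genes did) to 2.18, 0.425 and 0.327 CPM from 4 reads. Without day 9 replicate 2 or day 12 replicate 1, 1 of them fell, and 2 did without day 12 replicate 2. Tbx15, a limb and skeletal T-box factor, had 89.9, 79.2 and 43.4 CPM at day 9 and 3.49, 10.7 and 15.6 CPM at day 12 (-2.84 ± 0.38, adjusted p = 9.2e-05). Prrx1 had 17.2, 48.0 and 13.4 CPM and 5.68, 4.80 and 10.6 CPM (-1.90 ± 0.48, adjusted p = 0.011), and lost its call in some fits with 1 library left out (adjusted p up to 0.16).

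The 10 largest decreases were Kdr, Hoxa11os, Igf2, Vat1l, Meox2, H19, Frmd3, Nxpe2, Tbx15 and Plscr2. Igf2, the imprinted fetal growth factor, had 4392, 3150 and 1371 CPM at day 9 and 347, 250 and 382 CPM at day 12 (-3.19 ± 0.91, adjusted p = 0.023). H19, the imprinted non-coding RNA beside it, had 8110, 4890 and 2313 CPM and 744, 493 and 689 CPM (-2.99 ± 0.78, adjusted p = 0.013). The neighbours thus had the same order over the day 9 libraries, and both lost their call in some fits with 1 library left out (adjusted p up to 0.097 and 0.063). Kdr, a receptor for VEGF, had 40.9, 8.27 and 7.66 CPM and 2.91, 0.935 and 2.24 CPM (-3.22 ± 1.02, adjusted p = 0.039), a call that was lost with any 1 of the 6 libraries left out (adjusted p up to 0.26). Vat1l, Frmd3, Nxpe2 and Plscr2 had 66.5 to 100, 11.8 to 15.5, 23.1 to 81.5 and 5.69 to 23.0 CPM at day 9 and 3.64 to 19, 0.983 to 3.03, 1.56 to 14.5 and 0.619 to 3.83 CPM at day 12. Of the other imprinted genes (18 in the list), Grb10 and Plagl1 fell and Phlda2 and Magel2 rose, beside 3.45% and 5.37% of all genes. Each of these 4 lost its call with at least 1 library left out, and Plagl1 with any 1 of the 6. Meg3 had 70.5, 1113 and 531 CPM at day 9 and 76.2, 275 and 523 CPM at day 12, a spread within each day as large as any change (-0.97 ± 1.00, adjusted p = 0.61).

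None of 30 epithelial genes passed the test, and their median log2 change was 0.68. Cdh1, E-cadherin, had 652, 214 and 579 CPM at day 9 and 616, 643 and 660 CPM at day 12 (0.41 ± 0.66, adjusted p = 0.78), and Epcam had 236, 115 and 294 CPM and 274, 366 and 402 CPM (0.69 ± 0.45, adjusted p = 0.36). With the replicate block 4 rose, 1 did with RLE scaling, 2 with the GC trend removed, 3 in a fit to the 6 libraries alone, and 0 to 2 with 1 library left out. Elf3, an epithelial transcription factor, was closest to the threshold, at 8.16, 8.27 and 13.4 CPM and 33.9, 37.0 and 37.1 CPM (1.86 ± 0.63, adjusted p = 0.052, and 0.0033 with the block). From day 6 to day 9, a step that shares the day 9 libraries, 12 of the 30 rose.

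The signalling lists are given beside the 8.82% of all genes called in either direction. In the TGF-beta list the receptor gene Tgfbr2 had 134, 91.9 and 77.6 CPM at day 9 and 12, 18.4 and 53.5 CPM at day 12 (-1.86 ± 0.39, adjusted p = 0.0032), the ligand gene Tgfb2 (-1.77) and the latency protein gene Ltbp1 (-1.21) fell too, and Smad7, the inhibitory Smad, rose from 19.8 to 23.7 CPM to 51.4 to 77.0 CPM (1.59 ± 0.29, adjusted p = 0.001). These were 4 of 15 genes, and the list's median was -0.42. In the Nodal, BMP and Id list, 3 of 15 rose, Bmp4 (1.69), Bmp7 (3.10) and Lefty2, and 2 fell, Id1 (-1.71), a target of BMP signalling, and Id2 (-1.53). Tcf7 (1.91) and Lef1 (2.62) rose and Tcf7l2 (-1.13) fell, all TCF family factors of the Wnt pathway and 3 of 15 genes in that list. In the LIF and STAT3 list of 11, Pim1, a STAT3 target kinase, rose from 20.3 to 29.8 CPM to 65.0 to 114 CPM (1.77 ± 0.27, adjusted p = 0.0002) and the receptor gene Il6ra fell (-2.22). Fgfr4 (3.09) was the 1 gene of 13 in the FGF list that rose, to 1.21 to 1.56 CPM. Of these genes Smad7, Pim1, Tcf7 and Fgfr4 kept their call in every alternative fit run. With day 12 replicate 1 left out Ltbp1, Bmp4, Bmp7, Lefty2, Id2, Lef1, Tcf7l2 and Il6ra did not pass. Tgfbr2, Tgfb2 and Id1 lost their calls with pair 1 or pair 2 left out.

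Chromatin regulators are given gene by gene, beside the 5.37% of all genes that rose and the 3.45% that fell. Mtf2, a Polycomb-associated protein, had 68.2, 66.0 and 71.7 CPM at day 9 and 244, 193 and 139 CPM at day 12 (1.48 ± 0.22, adjusted p = 0.00017) and was the only one of 24 Polycomb genes to rise, while none fell. Of 13 DNA methylation genes, Dnmt3l, the cofactor of the de novo methyltransferases, rose from 4.63 to 9.81 CPM to 50.2 to 83.3 CPM (3.25 ± 0.97, adjusted p = 0.029), and Zfp57 (1.48), which protects imprints, and Tet2 (1.19) rose. Tet3 fell from 107, 112 and 121 CPM to 40.4, 44.8 and 66.6 CPM (-1.17 ± 0.23, adjusted p = 0.0016). Dnmt3l lost its call whenever 1 library other than day 12 replicate 3 was left out. Tet2 lost its call without day 9 replicate 1 or day 12 replicate 1, and Zfp57 with pair 1 or pair 2 left out. Smarca2, an ATPase of the BAF remodeller, was the 1 of 16 BAF genes that fell, from 145, 173 and 156 CPM to 20.3, 57.2 and 89.9 CPM (-1.5 ± 0.35, adjusted p = 0.006). It lost its call in the fit to the 6 libraries alone and with pair 1 or pair 2 left out. None of 14 genes of H3K9 methylation passed the test.

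Among metabolic genes, Pfkp, phosphofructokinase, had 31.6, 69.6 and 65.0 CPM at day 9 and 196, 307 and 243 CPM at day 12 (2.17 ± 0.39, adjusted p = 0.001) and, with the glucose transporter gene Slc2a1 (1.20), made up the 2 of 21 glycolysis genes that rose. The list counts of this paragraph stand beside the 5.37% of all genes that rose and the 3.45% that fell. Asns (1.38), Ddit3 (1.05) and Chac1 (2.34) rose among 18 genes of the ATF4 and unfolded protein response, and Amt (1.35) and Mthfd2 (1.09) among 18 of threonine, serine and one-carbon metabolism. Without day 9 replicate 2 or day 12 replicate 1 no gene of either list passed. The cyclin gene Ccnd2 had 1761, 1223 and 882 CPM at day 9 and 124, 317 and 509 CPM at day 12 (-2.03 ± 0.53, adjusted p = 0.014), Ccnd3 rose (1.16), and the CDK inhibitor gene Cdkn2c fell (-1.67). Slc2a1 and Ccnd3 lost their calls whenever 1 library other than day 12 replicate 3 was left out. Ccnd2 and Cdkn2c did not pass without day 12 replicate 1. No gene of the S phase (20), G2 and M phase (20), respiratory chain (28), ribosome biogenesis (18), AP-1 (15) or inflammation (20) lists passed, and the list medians were 0.22, 0.28, -0.08, 0.09, 0.24 and 0.35. With the replicate block 1 inflammation gene rose and 1 fell. In the inflammation and AP-1 lists the median was -1.17 and -1.11 in pair 1 and 0.67 and 0.43 in pair 2. Of 24 interferon response genes 1, Irf1 (1.29), rose, and 3 did with the replicate block.

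Of 26 SSEA1 synthesis and surface marker genes 2 rose and 2 fell, beside 5.37% and 3.45% of all genes. The list's median log2 change was -0.39. Pecam1, an adhesion molecule of endothelial and pluripotent cells, had 3.07, 2.83 and 3.30 CPM at day 9 and 63.8, 38.9 and 28.1 CPM at day 12 (3.83 ± 0.62, adjusted p = 0.00045), and Itgb7 rose (2.63). Ly6a had 352, 227 and 76.0 CPM and 14.2, 41.6 and 61.1 CPM (-2.49 ± 0.65, adjusted p = 0.014), and the hyaluronan receptor gene Cd44 had 124, 99.3 and 71.4 CPM and 18.4, 32.5 and 56.7 CPM (-1.45 ± 0.46, adjusted p = 0.038). Ly6a and Cd44 lost their calls in some fits with 1 library left out (adjusted p up to 0.099 and 0.21). The fucosyltransferase gene Fut4 was at 0.638 to 2.73 CPM throughout.

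The marker counts below stand beside the 5.37% of all genes that rose and the 3.45% that fell. None of 10 macrophage, 7 neural, 7 muscle or 1 tested erythroid markers passed. With the replicate block 1 macrophage marker, Cd68 (adjusted p = 0.011), and 1 neural marker rose. The macrophage genes summed to 9.78 to 14.6 CPM at day 9 and 25.3 to 35.7 CPM at day 12, most of it from Cd68 at 24.6 to 26.5 CPM at day 12, with Csf1r at 0.0479 to 0.85 CPM throughout. Of 8 endothelial markers Vwf (0.746, 0.86 and 1.72 CPM against 39.0, 26.8 and 20.2 CPM) and Flt1 rose, and Kdr and Tek fell (3 fell with the replicate block), Flt1 being at 38.2 CPM in day 12 replicate 1 and at 3.87 and 5.55 CPM in replicates 2 and 3, while the summed level was 136 to 245 CPM at day 9 and 77.0 to 102 CPM at day 12. No epidermal keratinocyte gene of 15 passed, but the day 12 libraries were split: Krt6a had 0.873 CPM in replicate 1 and 30.8 and 27.9 CPM in replicates 2 and 3, against 1.47 to 3.78 CPM at day 9. The keratinocyte genes summed to 127 CPM in day 12 replicate 1 and 316 and 351 CPM in replicates 2 and 3, and to 130 to 529 CPM at day 9, and the part of these genes in the differences between libraries was not tested. In the endoderm list of 13, Gata4 rose to 8.41, 1.23 and 1.31 CPM and Sox7 to 1.49, 0.34 and 0.327 CPM, again mostly in day 12 replicate 1, and the basement membrane genes Col4a1 and Col4a2 fell. With the replicate block 4 genes of that list rose, and without day 9 replicate 2 or day 12 replicate 1 none did. Of 12 trophoblast genes Krt7 and Hand1 rose, Hand1 from 0 reads to 11 (at least 3.52-fold, against a floor of 3 counts over the group). Its day 12 reads were 6, 1 and 4, and its call was lost whenever 1 library other than day 12 replicate 2 was left out. In the two-cell list of 2 tested genes neither passed.

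**Figure D4:**
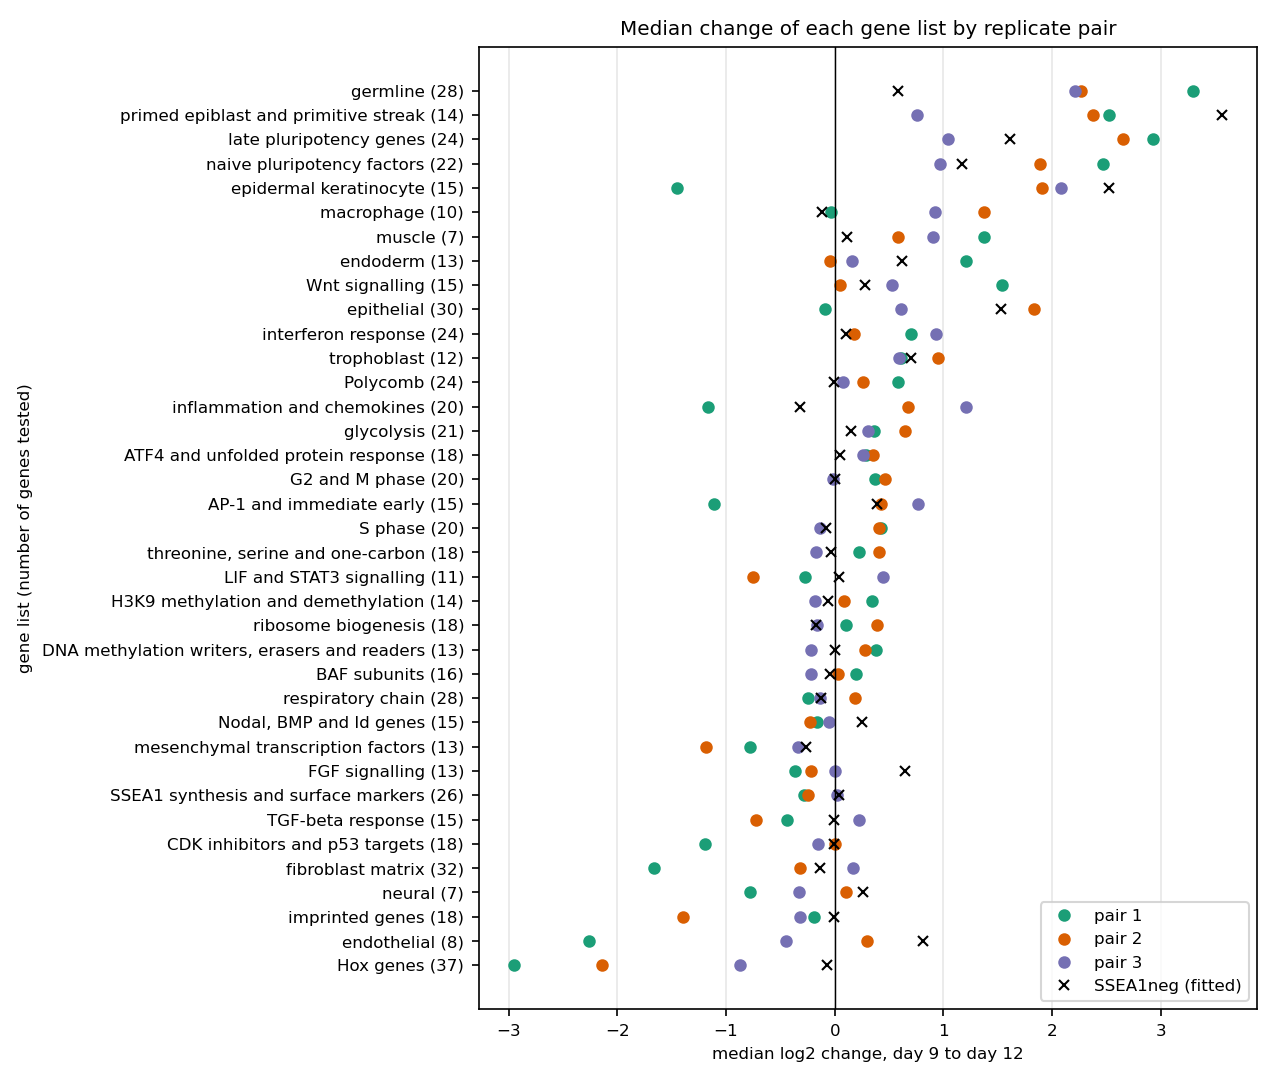
Median log2 change from day 9 to day 12 of the gene lists (rows, with the number of genes tested) in pairs 1, 2 and 3 of same-numbered SSEA1pos libraries (coloured points) and in the fitted SSEA1neg comparison (crosses). The reprogramming factor, two-cell and erythroid lists, with few genes tested, are not drawn. Germline and pluripotency lists lie above 0 and Hox genes below 0 in every pair, while the keratinocyte and inflammation lists are below 0 in pair 1 and above it in pairs 2 and 3.

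Genes on the X chromosome were compared with autosomal genes, since reactivation of the silent X is a late event of reprogramming in female cells. The median log2 change of 466 X-linked genes exceeded that of 12597 autosomal genes (mean of at least 1 CPM) by 0.38, 0.21 and 0.16 in pairs 1, 2 and 3 (0.25 ± 0.12, SD, n = 3). The same excess was -0.05, -0.05 and -0.02 from day 6 to day 9 and 0.31, 0.5 and 0.56 from day 12 to the iPS stage in SSEA1pos cells, steps that share libraries with this one, and -0.03, 0.12 and -0.19 from day 9 to day 12 in SSEA1neg cells. Xist, which coats and silences an X chromosome, had 153, 719 and 752 CPM at day 9 and 96.3, 303 and 624 CPM at day 12. It was lower in each pair, but the groups overlapped and it did not pass the test (-0.67 ± 0.69, adjusted p = 0.62). Its reads are not separated from those of Tsix, the antisense gene. The sex of the cells is not known here, and whether the X-linked excess reflects reactivation was not tested.

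In the SSEA1neg fraction over the same days 12 genes rose (0.0693%) and none fell by the same edgeR test (544 had an unadjusted p under 0.05), and 11 of the 12 also rose in SSEA1pos cells. The 12 were Otx2, Dsg2, Trap1a, Lin28a, Dppa5a, Fabp3, Dusp9, Cecr2, Myo5b, Rimklb, Chga and Sall4. Of the 930 genes that rose in SSEA1pos cells 820 had a change of the same sign in SSEA1neg cells, where their median log2 change was 0.87, and of the 598 that fell 452 did, with a median of -0.15. Over all genes tested the sign was the same in 10634 of 17326. The difference between the fractions was tested directly, and 10 genes passed (0.0577% of 17326), 6 with a higher (0.0346%) and 4 with a lower change (0.0231%) in SSEA1pos cells. So the larger number of calls in SSEA1pos cells is shown to be a difference between fractions for 10 genes only. A fit to the 12 libraries of these 4 groups alone called none for this difference, and DESeq2 called 57 higher and 94 lower.

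Cmklr1, the chemerin receptor, had 0.456, 0.205 and 0.479 CPM at day 9 and 21.5, 11.0 and 8.02 CPM at day 12 in SSEA1pos cells, and 4.74 to 10.4 and 4.73 to 8.35 CPM in SSEA1neg cells, a difference of the changes of 5.18 ± 0.78 (adjusted p = 0.008). Pde8a, a cyclic AMP phosphodiesterase, had 1.53, 1.39 and 1.44 CPM and 18.3, 9.99 and 10.9 CPM in SSEA1pos cells, and means of 15.0 and 12.6 CPM in SSEA1neg cells (3.42 ± 0.57, adjusted p = 0.012). Both genes were thus lower in SSEA1pos than in SSEA1neg cells at day 9 and near or above their level at day 12. Mid1, an X-linked ubiquitin ligase, had 138, 79.5 and 75.1 CPM and 11.9, 16.0 and 25.8 CPM in SSEA1pos cells and means of 44.2 and 42.9 CPM in SSEA1neg cells (-2.41 ± 0.39, adjusted p = 0.012). Zhx1, a zinc finger and homeobox repressor, had 34.8, 43.2 and 34.1 CPM and 14.2, 12.8 and 17.5 CPM, with means of 38.8 and 36.9 CPM in SSEA1neg cells (-1.26 ± 0.25, adjusted p = 0.044). Mitf (3.00) and Bclaf3 (1.75) had larger, and Hoxa11 (-2.66) and Hoxa11os (-2.79) lower, changes in SSEA1pos cells.

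**Figure D5:**
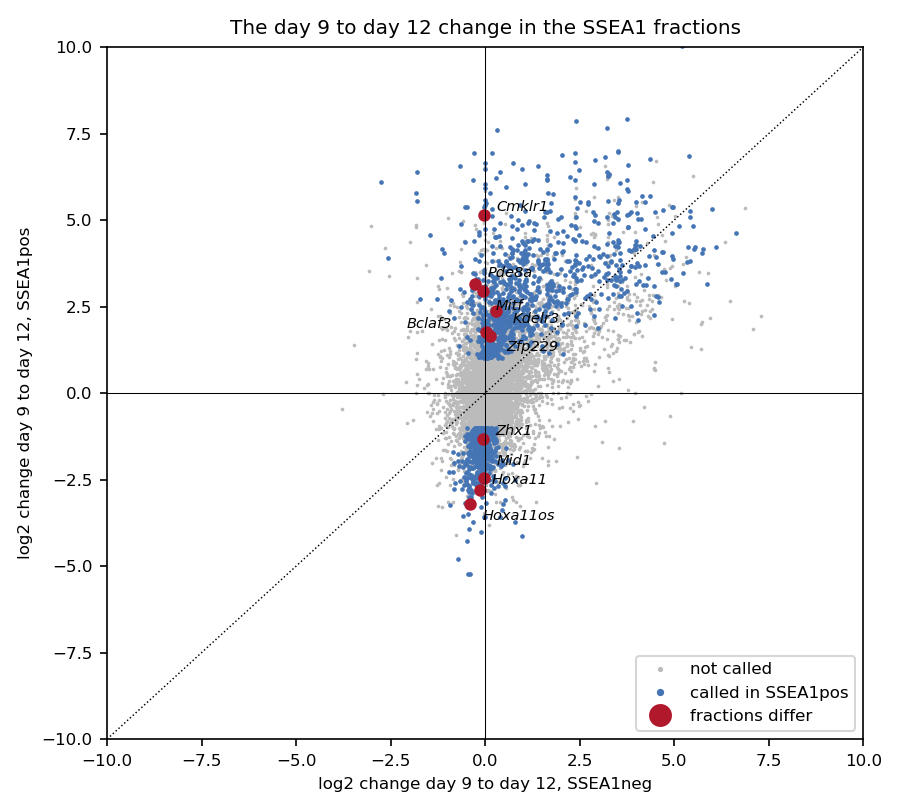
Fitted log2 change from day 9 to day 12 in SSEA1neg (x axis) and SSEA1pos cells (y axis) for each gene tested, with genes called in SSEA1pos cells in blue, the 10 genes whose change differed between the fractions in red and named, and equal change as a dotted line. The genes called lower in SSEA1pos cells have a median SSEA1neg change of -0.15, and 1 gene lies outside the axes.

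The neighbouring steps in SSEA1pos cells share libraries with this one. From day 6 to day 9, 173 genes rose (0.998%) and 14 fell (0.0808%), 1.08% in all, and from day 12 to the iPS stage 648 rose (3.74%) and 997 fell (5.75%), 9.49% in all. Of the 930 genes that rose, 818 had a mean at day 12 that was still below that of iPS SSEA1pos cells, with a median of 46.4% of the iPS level, and 179 rose again in the test of day 12 against the iPS stage while 4 fell. Of the 598 genes that fell, 516 were still above the iPS level, with a median of 217% of it, and 270 fell again while 5 rose. In that later step 12 of the 28 genes of the germline list rose, and none of the naive or late pluripotency lists. These values share the day 12 libraries with the step itself and are given side by side as a description.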

How the data were processed

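Poly-A RNA-seq counts of 33 libraries were used. Read counts per Ensembl gene were deposited by the authors, 1 file per library; per the submitters' processing notes STAR 2.3.0, Picard 1.100, HTSeq 0.6.0 and mm9 were used, roles not given, and file names speak of counting without strand. Lines naming no gene (no feature 6.38 to 12.46% in the 6 libraries) were left out. The annotation release was one not given in the sources used here. GENCODE M21, of another build, gave names, chromosomes, GC content and length only. RefSeq (GRCm38.p6) promoter windows were matched by symbol.

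Groups came from the titles. edgeR 4.0.16 (glmQLFit, robust, TMM, filterByExpr) was fitted to all 33 libraries, each group having its own coefficient (22 residual degrees of freedom), and the step and its difference between fractions were contrasts of that fit. A gene was called at an adjusted p under 0.05 and at least 2-fold. Standard errors are approximate, the log2 change over the root of the F statistic. R was 4.3.3 and DESeq2 1.42.0. The fit was tested on simulated data. For a gene with no read in a library the upper limit is 3 counts, 0.112 to 0.16 CPM, and intervals and floors cover counting error only. Nothing in the labels says that replicates were separate cultures, so the p-values cover no more than the spread among these samples, possibly technical.

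Genes were named by rule: the 10 largest increases and decreases among called genes of at least 10 CPM in the group where they are higher, with 3 pairs moving alike and no overlap, leaving aside IDs with no symbol, RIKEN clones and predicted genes; up to 4 largest differences between fractions each way by the same rule; up to 4 members of each of 40 lists by smallest p; all pluripotency list members; and Xist, Fut9, Fut4, Cdh1, Epcam, Thy1, Col1a1, Dnmt3l, Dazl and Meg3. A few members of the lists are not reported here by name. Other list members were named after their values were seen. The members and lists were chosen with earlier results of these data known.

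The correlation between same-numbered libraries, in their deviations from their group's mean, was 0.31, 0.111 and 0.103, each above 0.1, so the numbers were taken to pair the libraries, from the data and not from the labels; day 12 replicate 3 correlated better with day 9 replicate 2 (0.239). The pairing was decided before fits were compared. It enters the values given pair by pair and the replicate block, while the main fit has no replicate term. A gene that did not pass the main test was thus tested without the pairing. Alternatives were RLE scaling, no expression filter, DESeq2, the replicate block, removal of a GC trend, both together, the 6 or 12 libraries alone, adjusted p alone, each library left out and, added after seeing the data, each replicate pair left out.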

Additional observations from a re-analysis of the deposited data

Results flagged for a closer look

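The change from day 9 to day 12 differed between the SSEA1pos and SSEA1neg fractions in 10 genes by the interaction test of the edgeR fit (adjusted p of 0.008 to 0.049). The log2 change in SSEA1pos minus that in SSEA1neg cells was 5.18 for Cmklr1, 3.42 for Pde8a, 3.0 for Mitf, 2.1 for Kdelr3, 1.75 for Bclaf3 and 1.51 for Zfp229. It was -2.79 for Hoxa11os, -2.66 for Hoxa11, -2.41 for Mid1 and -1.26 for Zhx1. All 10 rose or fell in SSEA1pos cells, and none had an SSEA1neg change beyond -0.4 to 0.28. Kdelr3 and Zfp229 are named here because the count is small, after their values were seen.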

How the results depend on the processing

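No gene called in the step was called in the opposite direction in any alternative run, and 37 of 121 called genes named above kept their call throughout. Leaving out 1 library or 1 replicate pair gave 119 to 1010 genes that rose and 125 to 889 that fell, and for the difference between fractions leaving out 1 library gave 1 to 51 higher and 0 to 201 lower, the top of both ranges being without day 12 SSEA1pos replicate 3. The genes that fell numbered 363 with the 6 libraries alone, 276 with these and the replicate block, and 947 on adjusted p alone. For the difference, the genes called higher numbered 3 with no expression filter, 57 with DESeq2 and 0 with 12 libraries alone, and those called lower 94 with DESeq2, 8 with the replicate block, 7 with the GC trend removed, 14 with both and 0 with 12 libraries alone. With the replicate block 1196 genes rose and 708 fell in the step, within 1.5 times the main counts. The X-linked excess was 0.24 to 0.26 under other scalings and filters and 0.18 to 0.29 with 1 pair left out. With 1 library or pair left out, 4 genes that did not pass the test changed sign: Col1a1 ranged from -0.04 (without day 9 replicate 2; -0.03 without pair 3) to 1.55, Meg3 from -1.76 to 0.01 (without pair 2), Hoxb1 from -1.18 (without day 12 replicate 1) to 6.85 and Csf1r from -0.01 (without day 12 replicate 2) to 2.04. The cause of these shifts was not tested. At these depths genes near 0.112 to 0.16 CPM cannot be told from 0.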
